A study of Homo sapiens with 2 samples.

Results

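The genes described here are 10 members of the Notch pathway, namely the receptors NOTCH1, NOTCH2 and NOTCH3, the receptor-modifying enzyme LFNG, the ligands JAG1, JAG2 and DLL1, and the target genes HES1, HES4 and HEY1. They were taken from the 20033 protein-coding genes of the annotation, and their accessible regions were all those called from 10 kb before to 10 kb after the gene bounds. These windows held 109 of 359137 regions. The genes were selected on these measured values, LFNG by its regions called in 1 library, so the pileups of the 10 genes are a description. Open chromatin was read out with ATAC-seq, where the transposase Tn5 cuts and tags accessible DNA. The cells were U2OS, a human line derived from an osteosarcoma and grown in medium with serum. One library was made after infection with a hairpin labelled sh-VNGD, whose target by its name is Vanguard, a long non-coding RNA. The other was made after infection with the control hairpin sh-ctrl. Both groups thus carry a hairpin in the same line, and each held 1 library, so no difference below has a replicate check and no p-value was computed. The peak lists hold no RNA measurement, so the Vanguard level was not checked here.

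Notch receptors sit in the plasma membrane and are cut when a Jagged or Delta-like ligand on a neighbouring cell binds them. The freed intracellular part enters the nucleus and joins the DNA-binding protein RBPJ and Mastermind proteins, which switches on targets such as the HES and HEY repressor genes. Fringe enzymes such as LFNG add sugars to the receptor and shift which ligands it responds to. In bone, the pathway is known for restraining osteoblast differentiation.

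After removal of repeated positions, 35% of reads in sh-VNGD and 56% in sh-ctrl, 31326715 tags were kept in sh-VNGD against 22931980 in sh-ctrl, which is 1.37 times as many. On the assembled chromosomes, 302466 peaks were called in sh-VNGD against 213285 in sh-ctrl. A pileup is the number of tags over a peak summit and is not scaled for depth. Ratios are on the log2 scale, sh-VNGD over sh-ctrl, after each pileup was divided by kept tags. The median of all 152097 shared regions was -0.26 and that of 13754 gene start sites was -0.45, and ratios below are relative to the median of their kind. Their intervals are exact 95% Clopper-Pearson intervals and cover counting error only. Of the mesenchymal markers, 5 of 10 had a start-site peak in both libraries, with ratios above the median of all genes at 3 and below it at 2, while VIM, SPARC, S100A6, PRRX1 and COL3A1 had one in neither. Of the markers of other cell types, 5 of 10 had one in both, with 2 above and 3 below. Start-site peaks therefore did not set the labelled cell type apart from others. PTPRC, ALB and CDH5 had a start-site peak in neither library.

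Promoter sequences of 8 of the 10 genes were matched in RefSeq (GRCh38.p14), as 9 annotated starts. Shown are the 250 bases before the start of 5 of them, 5′ to 3′ on the gene's strand, because they show what lay under a start with a peak in both libraries (HES1, HES4), in sh-VNGD only (JAG2) and in neither (the second LFNG start, NOTCH3). Capitals mark TGGGAA, the core letters bound by RBPJ.
HES1 promoter, chr3:194135898-194136147, + strand: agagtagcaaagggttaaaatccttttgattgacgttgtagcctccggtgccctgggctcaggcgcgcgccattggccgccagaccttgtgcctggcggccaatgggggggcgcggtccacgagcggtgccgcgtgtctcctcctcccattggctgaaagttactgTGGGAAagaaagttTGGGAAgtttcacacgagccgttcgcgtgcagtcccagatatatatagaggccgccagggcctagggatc
HES4 promoter, chr1:1000098-1000347, - strand: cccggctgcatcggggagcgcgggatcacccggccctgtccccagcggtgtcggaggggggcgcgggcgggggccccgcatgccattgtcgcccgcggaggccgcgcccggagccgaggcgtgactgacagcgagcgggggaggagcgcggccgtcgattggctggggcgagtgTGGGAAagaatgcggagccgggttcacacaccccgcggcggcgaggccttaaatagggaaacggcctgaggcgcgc
JAG2 promoter, chr14:105168777-105169026, - strand: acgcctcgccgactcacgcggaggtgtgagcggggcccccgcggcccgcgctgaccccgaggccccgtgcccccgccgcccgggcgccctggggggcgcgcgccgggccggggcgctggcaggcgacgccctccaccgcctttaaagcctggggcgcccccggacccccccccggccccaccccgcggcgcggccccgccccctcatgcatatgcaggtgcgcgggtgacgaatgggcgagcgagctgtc
LFNG promoter, chr7:2517613-2517862, + strand: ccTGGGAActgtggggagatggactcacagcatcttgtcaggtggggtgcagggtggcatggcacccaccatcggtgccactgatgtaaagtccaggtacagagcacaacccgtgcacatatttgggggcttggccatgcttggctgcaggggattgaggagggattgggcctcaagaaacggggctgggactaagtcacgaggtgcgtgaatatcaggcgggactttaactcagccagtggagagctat
NOTCH3 promoter, chr19:15200996-15201245, - strand: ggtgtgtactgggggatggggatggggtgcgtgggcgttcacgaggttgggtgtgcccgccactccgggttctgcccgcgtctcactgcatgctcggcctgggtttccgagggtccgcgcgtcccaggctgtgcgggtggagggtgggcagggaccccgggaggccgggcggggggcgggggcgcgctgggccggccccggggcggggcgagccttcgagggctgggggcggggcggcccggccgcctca

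The HES1 promoter held TGGGAA at 84 and 70 bases before the start, and the HES4 promoter held it once, at 76 bases. The second LFNG start had it at 248 bases. Of the 9 starts, 3 held TGGGAA on either strand, against 20.1% of 22198 promoters of protein-coding genes. CACNAG, the N-box bound by HES proteins, was found in 3 of 9, against 30.9% of all. GGGCGG, a letter run bound by SP1, was in 7 of 9, against 53.7%. CACGTG and TGANTCA, the letters of an E-box and of an AP-1 site, were in 0 of 9, against 7.37% and 5.36%. Both strands were searched, and 0 pairs of different motifs overlapped in these 9 windows. Bases G and C made up 59.2% of the HES1 window, 74.8% of HES4, 81.6% of JAG2, 57.2% of the second LFNG start and 78.0% of NOTCH3, against a median of 62.0% over all promoters. A high GC share was thus present both at promoters with a peak and at the NOTCH3 promoter without one. A match describes the letters of the window and shows no binding.

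The first comparison asked how much of the Notch gene chromatin was called open in each library. The 109 regions comprised 88 peaks in sh-VNGD against 78 in sh-ctrl. Of these regions, 31 were called in sh-VNGD only, 22 in sh-ctrl only and 56 in both. Over all regions the percentages were 41.2% for sh-VNGD only, 16.5% for sh-ctrl only and 42.4% for both. In the Notch windows they were 28.4% (Wilson 95% interval 20.8 to 37.5), 20.2% (13.7 to 28.7) and 51.4% (42.1 to 60.6) in the same order. Neighbouring regions are not independent, and LFNG was chosen by its one-library regions, so these shares are a description and the difference was not tested. Shared regions of the Notch windows were also higher than most. They had a median pileup of 45 tags in sh-VNGD against 42 in sh-ctrl, against 22 and 18 over all shared regions. The one-library regions were closer to the series. Their medians were 16 tags in sh-VNGD only and 16.5 in sh-ctrl only, against 14 and 12 over all such regions.

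**Figure D1:**
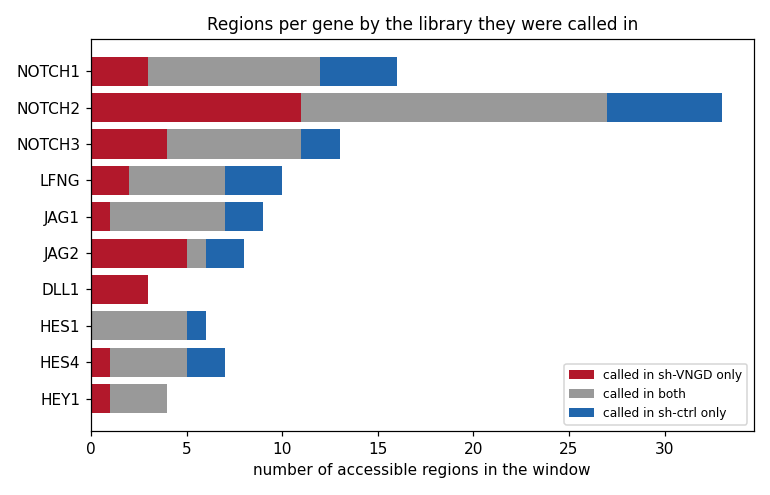
Number of accessible regions in the window of each gene, split into regions called in sh-VNGD only (red), in both libraries (grey) and in sh-ctrl only (blue). NOTCH2 had the most regions, 33, and all 3 DLL1 regions were called in sh-VNGD only.

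Shared regions of the Notch windows did not move as a block. Their median ratio was -0.06 (quartiles -0.34 and 0.23), with 26 regions above and 30 below the median of all shared regions. More than 1.5-fold below that median were 7 of 56, against 10.4% of all shared regions, and more than 1.5-fold above it were 5, against 11.2%. Counting intervals lay wholly below it at 8 of 56, against 7.41%, and wholly above it at 4, against 2.82%. Of the 7 low regions, 5 lay in the windows of the target genes HES1 and HES4, and target windows held 12 of the 56 shared regions. The 5 high regions lay in receptor windows, which held 32 of the 56. The split by role was not tested. Among regions with a mean pileup of at least 30 tags, the median was -0.08 in 37 Notch regions and -0.16 in 51952 regions of the series. Of these 37, 6 (16.2%) were more than 1.5-fold below the median of all shared regions, against 14.6% of the 51952. More than 1.5-fold above it were 3 (8.11%), against 4.83%. The split by role was not repeated at that height.

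**Figure D2:**
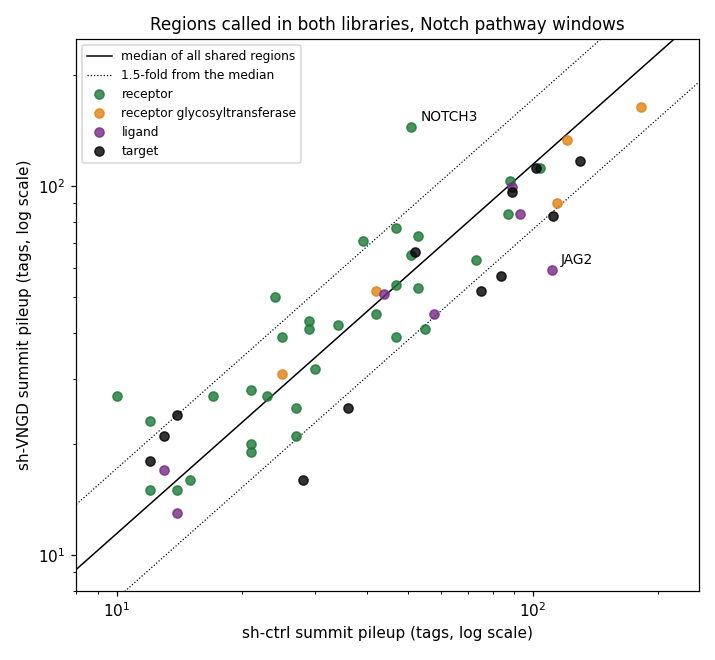
Summit pileup in sh-VNGD (y axis, tags, log scale) against sh-ctrl (x axis, tags, log scale) for the 56 regions called in both libraries, coloured by the role of the gene. The solid line is the median of all shared regions and the dotted lines are 1.5-fold from it, and the NOTCH3 region with 144 tags in sh-VNGD against 51 in sh-ctrl lies farthest above.

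NOTCH1, the receptor gene most often mutated in T-cell leukaemia, was open at its start in both libraries. The region over the start, at chromosome 9, 136545793 to 136546990, had 103 tags in sh-VNGD against 88 in sh-ctrl. It was the highest region of the NOTCH1 window. Its start-site ratio was 0.23 (-0.20 to 0.65). An interval spanning 0 leaves this value within counting error of the median of all genes. Relative to the median of all shared regions, the same region had a ratio of 0.03 (-0.39 to 0.46). Just upstream, a region at 136547118 to 136547581 had 41 tags in sh-VNGD against 55 in sh-ctrl, a ratio of -0.62 (-1.24 to -0.01). About 5 kb upstream, at 136551392 to 136551646, 53 tags were called in sh-VNGD only. Only 173 of 147823 regions called in sh-VNGD alone were as high. A region at 136550497 to 136550698 had 36 tags in sh-VNGD only, and 35 tags at 136543396 to 136543654 inside the gene were called in sh-ctrl only. One-library regions at NOTCH1 thus went in both directions. At the other end of the window, a region at 136488596 to 136488936 had 71 tags in sh-VNGD against 39 in sh-ctrl, a ratio of 0.67 (0.09 to 1.27). Beyond it, the pair of regions from 136484455 lay within 1000 bp of the start of SEC16A.

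NOTCH2 is the longest of the 10 genes, at 158110 bp, and had 33 regions, 11 in sh-VNGD only, 6 in sh-ctrl only and 16 in both. Its start region, at chromosome 1, 120069293 to 120070172, had 73 tags in sh-VNGD against 53 in sh-ctrl, a start-site ratio of 0.46 (-0.07 to 1.00). The highest region in sh-VNGD lay deep in the gene body, at 119948385 to 119949038, with 77 tags in sh-VNGD against 47 in sh-ctrl and a ratio of 0.52 (-0.02 to 1.07). In sh-ctrl the start region, with 53 tags, was higher than it. Each value was above the median of its own kind, with an interval that just included 0. The medians differ, and relative to that of all shared regions the start region had 0.27 (-0.26 to 0.81). The body held 3 regions more than 1.5-fold above the median. These had 50 tags in sh-VNGD against 24 in sh-ctrl (ratio 0.87, 0.14 to 1.63), 27 and 10 tags (1.24, 0.15 to 2.45) and 23 and 12 tags (0.75, -0.32 to 1.89). By fold enrichment, the regions with 50 and 23 tags in sh-VNGD had ratios of 0.29 and 0.25 relative to all shared regions and were no longer past 1.5-fold, while that with 27 tags had 0.98. By pileup, no shared NOTCH2 region was more than 1.5-fold below the median of all shared regions. By fold enrichment, the region at 120001224 to 120001526, with 45 tags in sh-VNGD against 42 in sh-ctrl, had -0.60 and passed that limit. The region at 119910193 to 119910555, with 27 and 17 tags in the same order, had 0.65 and passed it on the high side. The highest one-library region by unscaled pileup, at 120042009 to 120042252, had 27 tags in sh-VNGD. In sh-ctrl, which had fewer kept tags, the highest had 20 tags, at 119968660 to 119968916. The first exons of NOTCH2 have near-identical NOTCH2NL copies, so pileups near its start are uncertain where reads were shared among them.

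NOTCH3, a receptor known from smooth muscle and pericytes, had no peak within 1000 bp of its annotated start in either library. Its promoter, printed above, had 0 of 250 bases in a peak of either library. The nearest strong region lay 4593 bp inside the gene, at chromosome 19, 15195372 to 15196402, with 112 tags in sh-VNGD against 104 in sh-ctrl, a ratio of -0.09 (-0.48 to 0.31). The 2 libraries were close to each other there. The farthest value from the median among all shared Notch regions lay 13073 bp inside the gene, at 15187280 to 15187922, with 144 tags in sh-VNGD against 51 in sh-ctrl. Its ratio was 1.30 (0.83 to 1.80). The authors' fold enrichment over local background was 14.1 in sh-VNGD against 9.06 in sh-ctrl at this region, so the same direction was seen after division by the surrounding signal. The local background itself was 9.32 tags in sh-VNGD against 4.74 in sh-ctrl. Shared regions elsewhere in the NOTCH3 window had ratios from -0.41 to 0.45. The highest one-library region, at 15164942 to 15165158, had 27 tags in sh-VNGD.

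LFNG, the fringe enzyme, had its strongest regions inside the gene and not at an annotated start. Its 10 regions were 2 in sh-VNGD only, 3 in sh-ctrl only and 5 in both. The gene runs on the + strand from chromosome 7, 2512529 to 2529177, with a second annotated start at 2517863. The region called in sh-ctrl only, at 2527815 to 2528381, had 84 tags and a fold enrichment of 4.53 over a local background of 17.8 tags. It lay 15286 bp downstream of the first start and 796 bp before the end of the gene, so it is a region near the 3′ end and not a promoter. Of 59217 regions called in sh-ctrl alone, 36 were as high. The nearest sh-VNGD peak was 3334 bp away, with a local background of 21.0 tags. Across the sh-VNGD list, peaks whose local background was within 10% of that were called down to 40 tags, with a first percentile of 43.5. The absence of a call is therefore not a value of 0, and the sh-VNGD level at this region is not known from the lists.

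The reverse case lay in the same gene. At 2520313 to 2520538, 63 tags were called in sh-VNGD only, a height reached by 84 of 147823 regions called in that library alone. The nearest sh-ctrl peak was 404 bp away and had 121 tags, and sh-ctrl peaks with a like local background were called down to 39 tags, with a first percentile of 42.2. Divided by the depth ratio, 63 tags correspond to 46.1 tags at the depth of sh-ctrl, close to that limit before any centring. Multiplied by it, the 84 sh-ctrl tags correspond to 115 at the depth of sh-VNGD, well above the limit of 40. Both values are scaled by kept tags alone, whereas shared regions had a median ratio of -0.26. Centring on that median would raise the value of 46.1 and lower that of 115. Around the first start, 16 tags at 2512724 to 2512966 were called in sh-VNGD only, and 26 tags at 2504871 to 2505126 upstream in sh-ctrl only. LFNG thus had one-library regions of both kinds.

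The shared LFNG regions were among the highest of the Notch windows. At 2523584 to 2524523 the pileup was 163 tags in sh-VNGD against 182 in sh-ctrl, a ratio of -0.35 (-0.67 to -0.04). At 2522883 to 2523377 it was 90 tags in sh-VNGD against 114 in sh-ctrl, a ratio of -0.53 (-0.95 to -0.12). At 2519393 to 2519922 it was 133 tags in sh-VNGD against 121 in sh-ctrl, a ratio of -0.06 (-0.42 to 0.31). Intervals of the pair nearest the 3′ end lay below the median of all shared regions. They reached -0.16, the median of shared regions with a mean pileup of at least 30 tags, so the call depends on which median is used. Relative fold enrichment of that pair was 0.22 and -0.05. Local background at these 3 regions was 21.0, 20.6 and 19.6 tags in sh-VNGD and 25.9, 23.8 and 21.5 in sh-ctrl, and fold enrichment at the highest was 7.47 in sh-VNGD against 6.79 in sh-ctrl. Scaled to kept tags and set against all shared regions, the local background ratios were -0.76, -0.66 and -0.59 in the same order. The surrounding signal was thus lower in sh-VNGD at all 3, also at the region whose summit ratio was -0.06. Its part in the ratios was not tested. Within 1000 bp of the first start, LFNG had 31 tags in sh-VNGD against 25 in sh-ctrl, a start-site ratio of 0.31 (-0.50 to 1.13). Set against all shared regions, this region had 0.12 (-0.69 to 0.94).

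**Figure D3:**
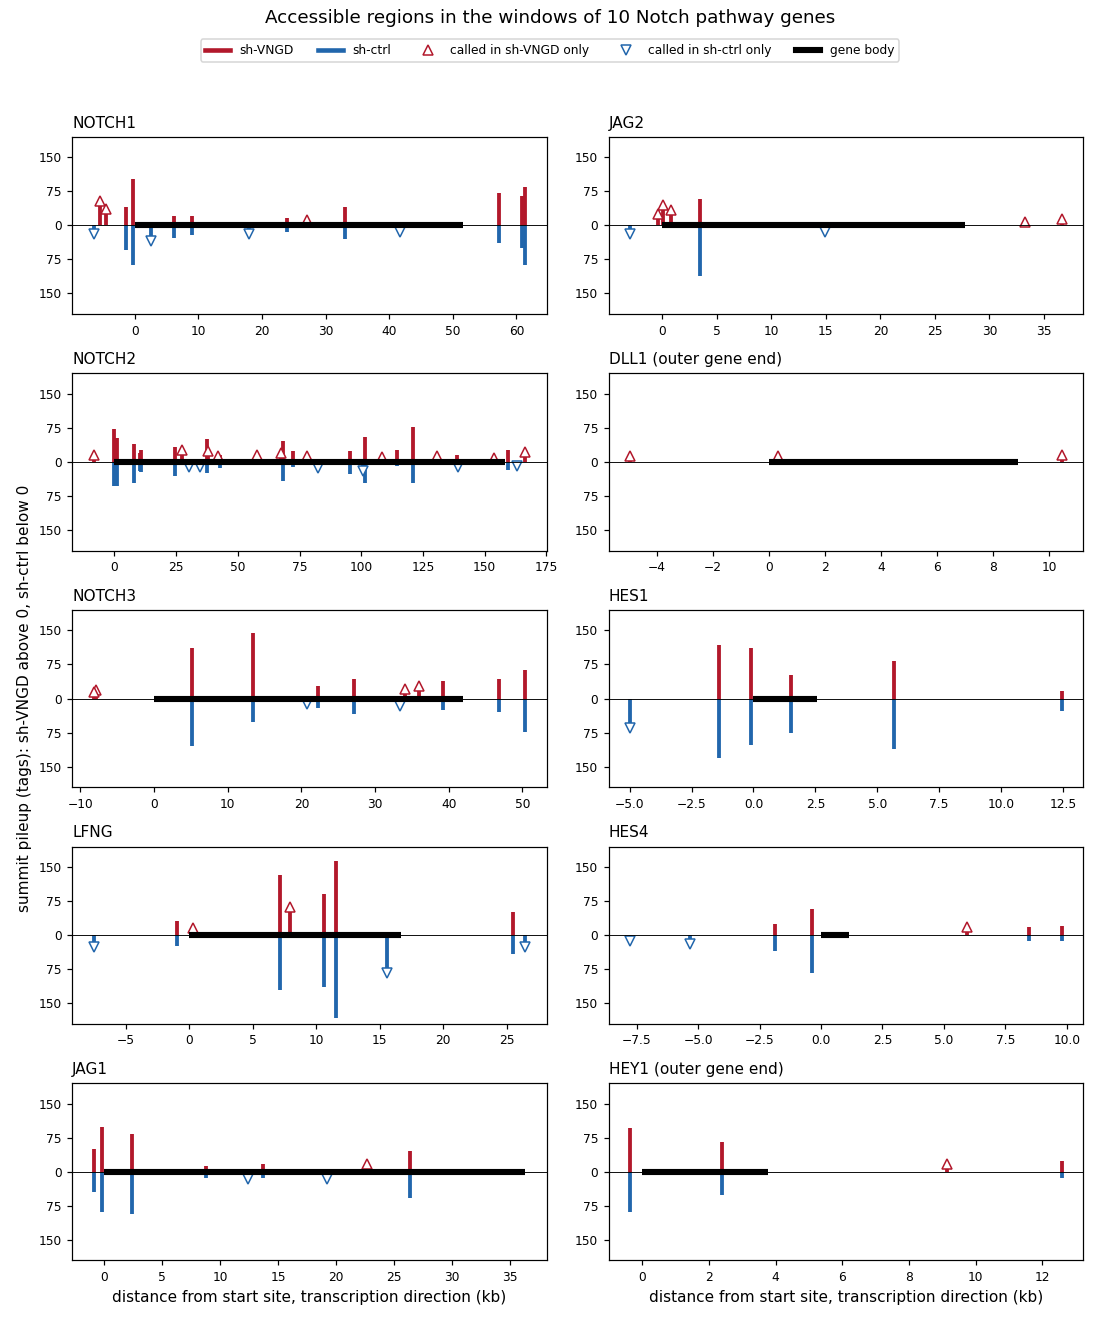
Summit pileup (tags) of every region in the 10 windows by distance from the start site in the direction of transcription (kb), with sh-VNGD drawn above 0 and sh-ctrl below. The black bar is the gene body, open triangles mark regions called in 1 library, and DLL1 and HEY1 are placed by an outer gene end. LFNG shows a sh-VNGD-only region of 63 tags and a sh-ctrl-only region of 84 tags near its 3′ end, and JAG2 shows 3 sh-VNGD-only regions around its start.

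JAG1, a ligand expressed in many tissues, differed little between the libraries. Its start region, at chromosome 20, 10673851 to 10674596, had 99 tags in sh-VNGD against 89 in sh-ctrl. The start-site ratio was 0.15 (-0.27 to 0.58). Set against all shared regions, the same region had -0.04 (-0.47 to 0.39). A region 2212 bp into the gene, at 10671460 to 10671787, had 84 tags in sh-VNGD against 93 in sh-ctrl, a ratio of -0.34 (-0.78 to 0.10). All 6 shared JAG1 regions lay within 1.5-fold of the median, from -0.56 to 0.19. The highest one-library region by unscaled pileup, at 10651206 to 10651493, had 18 tags in sh-VNGD. A region at 10654643 to 10654976 had 17 tags in sh-ctrl only, the library with fewer kept tags.

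JAG2, the second Jagged ligand, had opposite differences at its start and inside the gene. Around the start, 3 neighbouring regions were called in sh-VNGD only. They had 44 tags over the start, at chromosome 14, 105168520 to 105168908, 33 tags at 105167794 to 105168107 and 24 tags at 105169050 to 105169249. The first of these covered 132 of the 250 promoter bases printed above. No sh-ctrl peak was called within 1000 bp of the JAG2 start. The nearest sh-ctrl peak to the start region, 2681 bp away, had a local background of 4.26 tags, and sh-ctrl peaks with a like background were called down to 12 tags. For the region with 33 tags, the nearest sh-ctrl peak had a local background of 7.58 tags. Peaks with a background like that were called down to 18 tags, with a first percentile of 22. Divided by the depth ratio, 44 and 33 tags correspond to 32.2 and 24.2 tags at the depth of sh-ctrl. The value of 24.2 is close to that limit, and the region with 24 tags corresponds to less. These values are scaled by kept tags alone, and centring on the median of shared regions, -0.26, would raise them. Inside the gene, at 105165053 to 105165536 and 3240 bp from the start, the order was the other way. The pileup there was 59 tags in sh-VNGD against 111 in sh-ctrl, and the ratio of -1.10 (-1.59 to -0.64) was the lowest of the shared Notch regions. Fold enrichment was 6.91 in sh-VNGD against 13.1 in sh-ctrl, while local background was nearly equal at 7.68 and 7.58 tags in the same order. Scaled to kept tags and set against all shared regions, the local background ratio was -0.43, less far below 0 than the summit.

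DLL1, a Delta-like ligand, was called open in sh-VNGD only. Its 3 regions had 15, 13 and 12 tags in sh-VNGD, at chromosome 6 from 170280391, 170290632 and 170295833. Their local background was the genome-wide level of that library, 1.92 tags, and the regions with 13 and 12 tags lay over FAM120B as well. Such heights are near the median of 14 tags for all regions called in sh-VNGD only. With JAG2, DLL1 made 2 of 10 genes with a start-site peak in sh-VNGD only, against 3.81% of all genes. There were 0 of 10 with one in sh-ctrl only, against 2.48%, and 7 of 10 had one in both, against 68.7%.

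HES1, a repressor gene and a direct Notch target, had lower ratios at the regions beside its start than over it. Over the start and the printed promoter, at chromosome 3, 194135874 to 194136250, the pileup was 112 tags in sh-VNGD against 102 in sh-ctrl, a ratio of -0.06 (-0.46 to 0.34). Upstream, at 194134222 to 194135306, it was 117 tags in sh-VNGD against 130 in sh-ctrl, the highest region of the window. This region set the start-site ratio of -0.15 (-0.52 to 0.22), and relative to all shared regions it had -0.34 (-0.72 to 0.03). The promoter with the pair of TGGGAA letters thus had a ratio within counting error of the median. Farther out, 3 regions were more than 1.5-fold below the median. They had 52 tags in sh-VNGD against 75 in sh-ctrl (-0.72, -1.26 to -0.19), 83 and 112 tags (-0.62, -1.05 to -0.20) and 16 and 28 tags (-1.0, -1.98 to -0.06). A region 4773 bp upstream, at 194130981 to 194131375, had 64 tags and was called in sh-ctrl only, while sh-VNGD peaks with a local background like that of its nearest peak were called down to 32 tags. Local background over the start was 16.3 tags in sh-VNGD against 21.96 in sh-ctrl. Fold enrichment there was 6.55 in sh-VNGD against 4.49 in sh-ctrl, and its median ratio over the 5 shared HES1 regions was 0.06 relative to all shared regions, against -0.62 by pileup. Scaled to kept tags and set against all shared regions, the local background ratio was -0.88 over the start, where the summit had -0.06. At the region with 16 and 28 tags it was -0.26, and the fold enrichment ratio there was -0.83. The surrounding signal was thus lower in sh-VNGD on this scale but did not follow the summits region by region. Its part in the ratios was not tested.

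HES4, a related repressor gene, had the lowest start-site ratio of the 7 genes with one. The region over its start and the single TGGGAA, at chromosome 1, 999968 to 1000928, had 57 tags in sh-VNGD against 84 in sh-ctrl. Its start-site ratio was -0.56 (-1.07 to -0.06), an interval wholly below 0. It was 1 of 7 such intervals, against 4.19% of start sites of all genes, and 0 of 7 lay wholly above 0, against 4.25%. The value lay just within 1.5-fold of the median of start sites, a limit passed on the low side by 3.24% of all start sites and 0 of these 7. On the high side 6.91% of all passed, and again 0 of 7. Relative to the median of all shared regions, the same region had a ratio of -0.75 (-1.26 to -0.25). It was thus among the 7 low regions counted above, and the call depends on which median is used. A second region 1774 bp upstream had 25 tags in sh-VNGD against 36 in sh-ctrl, a ratio of -0.72 (-1.52 to 0.06). Fold enrichment at the start was 8.90 in sh-VNGD against 9.91 in sh-ctrl, and local background 5.52 and 7.58 tags in the same order. As at HES1, the surrounding signal was lower in sh-VNGD, and its part was not tested. The highest one-library region, at 1005339 to 1005550, had 19 tags in sh-ctrl.

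HEY1, the third target gene and also a repressor, had 3 shared regions with ratios from -0.08 to 0.58. At the outer gene end used as its start, at chromosome 8, 79767550 to 79768701, the pileup was 96 tags in sh-VNGD against 89 in sh-ctrl. The start-site ratio was 0.11 (-0.32 to 0.54), and relative to all shared regions this region had -0.08 (-0.51 to 0.35). Its inner region, from 79765229, had 66 tags in sh-VNGD against 52 in sh-ctrl, a ratio of 0.15 (-0.40 to 0.70). The highest shared ratio was at 79755057 to 79755303, with 24 tags in sh-VNGD against 14 in sh-ctrl (-0.42 to 1.65). The intervals of all 3 regions spanned 0. The highest one-library region, from 79758512, had 16 tags in sh-VNGD.

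**Figure D4:**
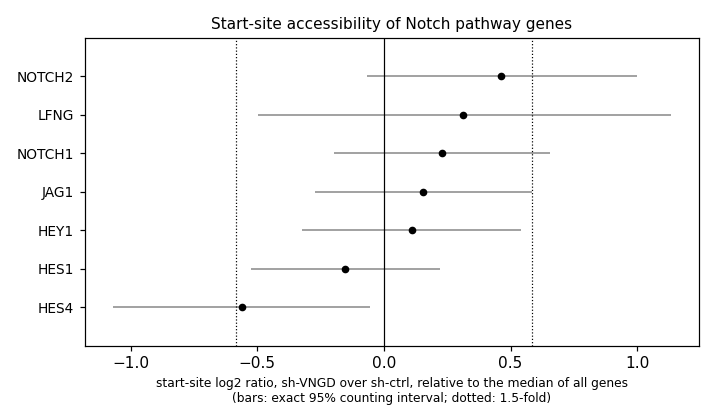
Start-site log2 ratio of sh-VNGD over sh-ctrl relative to the median of all genes (x axis) for the 7 genes with a start-site peak in both libraries. Points are the ratios and bars the exact 95% counting intervals, and HES4 at -0.56 is the only one of the 7 whose interval does not reach 0.

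The same measure was applied to other genes of the pathway, of which 57 of 58 listed symbols were matched. A start-site peak in both libraries was found for 52 of them, and their median ratio was 0.06, with 32 above and 20 below the median of all genes. More than 1.5-fold higher in sh-VNGD were 2 of 52, against 6.91% of all start sites, and more than 1.5-fold lower were 0, against 3.24%. The list holds ligands, enzymes, cofactors and targets, and no subgroup of it was counted. Highest with at least 30 tags were PSEN2, a catalytic subunit of gamma-secretase, APH1B, another subunit, and SPEN, a corepressor that binds RBPJ. PSEN2 had 65 tags in sh-VNGD against 43 in sh-ctrl, a ratio of 0.60 (0.02 to 1.19), the only interval of the 52 wholly above 0, against 4.25% of all start sites. APH1B had 48 tags in sh-VNGD against 34 in sh-ctrl (0.50), and SPEN had 98 and 72 (0.44), both with intervals spanning 0.

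Lowest were the cell cycle gene CCND1, which encodes cyclin D1, the corepressor CTBP1 and the ubiquitin ligase MIB2. CCND1 had 122 tags in sh-VNGD against 174 in sh-ctrl, a ratio of -0.51 (-0.86 to -0.17), the only interval of the 52 wholly below 0, against 4.19% of all start sites. CCND1 had no annotated start in the table, and the outer end with more signal, at chromosome 11, 69654474, is the 3′ end of this + strand gene, so the value is not one of its promoter. CTBP1 had 32 tags in sh-VNGD against 45 in sh-ctrl (-0.49), and MIB2 had 63 and 87 (-0.47), with intervals spanning 0. The DNA-binding partner RBPJ itself had 80 tags in sh-VNGD against 97 in sh-ctrl (-0.28, -0.72 to 0.16), named here after its value was seen. HES2, a HES family gene, had a start-site peak of 27 tags in sh-VNGD only, and DLK1, a Delta-like protein gene, one of 11 tags in sh-ctrl only. NOTCH4, HES5 and HES7 had none in either library.

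**Figure D5:**
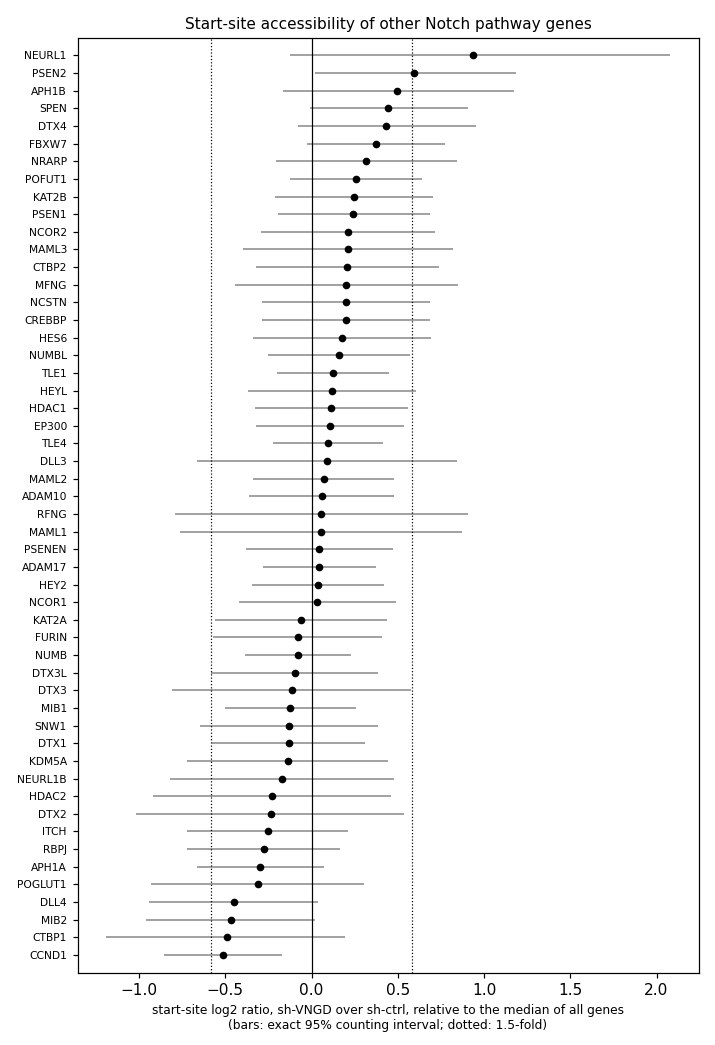
Start-site log2 ratio of sh-VNGD over sh-ctrl relative to the median of all genes (x axis) for 52 other Notch pathway genes with a start-site peak in both libraries. Points are the ratios, bars the exact 95% counting intervals and dotted lines mark 1.5-fold, and NEURL1 at 0.94, with 23 tags in sh-VNGD against 12 in sh-ctrl, is the highest.

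The height of the regions called in 1 library was compared as counts, with no test. A pileup of at least 30 tags was reached by 5 of 31 regions called in sh-VNGD only, against 1.67% of all such regions, and by 4 of 29 without LFNG. It was reached by 3 of 22 regions called in sh-ctrl only, against 3.33%, and by 2 of 19 without LFNG. These 8 regions lay in the windows of NOTCH1 (3), LFNG (2), JAG2 (2) and HES1 (1). LFNG was taken into the set for such a region, and all 10 genes were selected on these measured values. No support is therefore drawn from these counts, with or without LFNG. The 10 kb limit fell between regions of like height at some genes. At LFNG the last region inside the 10 kb limit, 9693 bp from the gene, had 27 tags in sh-ctrl only, and the first outside, at 10427 bp, had 25 tags in sh-ctrl only. At NOTCH1 the outermost shared region inside, 9533 bp away, had 84 tags in sh-VNGD against 87 in sh-ctrl, and the first outside, at 10313 bp, had 122 and 94.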

How the data were processed

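ATAC-seq peaks of 1 sh-VNGD and 1 sh-ctrl library of U2OS cells were used. Per the file headers, peaks were called with MACS 2.1.0.20150731 on each library without a control. The settings were a shift of 100 bp, an extension to 200 bp and 1 tag kept per position, the q cutoff was 0.05, and local background was taken over 10000 bp. Per the submitters' processing notes, the tools were deepTools, MACS2 2.1.2 and Bowtie2 2.2.5, on hg38 (GRCh38.p13). Alignment filters are not given in the sources used here. The deposited pileup is a signal of whole tags, not scaled for depth, and the −log10 p and q values and the fold enrichment are the authors' own values. The peak length was read as deposited. Local background was recovered from the deposited pileup and fold enrichment, as the pileup plus 1 divided by the fold, minus 1.

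Peaks of both libraries on chromosomes 1 to 22, X and Y were merged into regions (1 bp overlap) with Python 3.11.15. Gene bounds and starts came from RefSeq tables of GRCh38.p14. At start sites, the highest peak of each library in regions touching 1000 bp on each side was used, for the start with most signal. Starts were annotated for 15841 genes, and the outer gene end with more signal stood in for 4192, DLL1 and HEY1 among them. Ratios and intervals were tested on simulated pileups drawn as independent Poisson counts, the error that the intervals assume. That simulation did not include peak calling or the choice of the highest peak, so it does not show how the intervals hold there. Depth was 31326715 kept tags of 48164322 read in sh-VNGD and 22931980 of 51628228 in sh-ctrl. The members and lists were chosen with earlier results of these data known. Named were the 10 genes and, in each window, the highest region and highest one-library region by unscaled pileup. Of the other pathway genes, the 3 highest and 3 lowest ratios with at least 30 tags in either library were named. Those with a start-site peak in 1 library were named too. Genes like LFNG in sh-ctrl-only pileup, also part of that rule, were left out, because the LFNG region is not at its start. Alternatives covered windows, thresholds, list lengths, overlap, scaling and fold enrichment. Nothing tests a difference, because each group had 1 library.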

Additional observations from a re-analysis of the deposited data

How the results depend on the processing

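No paired analysis was possible because each group had 1 library, and leaving out a library was not possible either. A change of scaling cancels in ratios relative to all genes. Of 26 such start-site ratios recomputed for the 7 genes under the other alternatives, 23 kept their sign and 24 stayed within the counting interval of the reported value. The others were HES1 at 0.38 and HES4 at -0.041 with fold enrichment in place of pileup. HES1 was 0.13 in a window of 500 bp and 0.15 with only regions covering the start, an alternative chosen after seeing the data. In those 2 settings LFNG had no ratio, because its nearest shared region lay 773 bp from the start, and it is not among the 26 there. For NOTCH1, NOTCH2, HES4, HEY1 and JAG1, windows of 500 and 2000 bp took the same region and gave the same value, so they add no check. Counting only regions covering the start also left the ratios of these genes unchanged before centring, and only the median of all genes differed. The HES1 ratio was unchanged in a window of 2000 bp. Such values could not change sign or leave the interval by another choice of region. Before centring, the HES1 ratio was 0.26 by fold enrichment, against -0.60 by pileup. The median ratio of shared Notch regions before centring, -0.31, was -0.073 by fold enrichment and 0.14 with unscaled pileups, so its sign rests on scaling to kept tags. With gene bounds alone, 58 peaks were counted in sh-VNGD, with 18 regions in sh-VNGD only and 14 in sh-ctrl only. With 25 kb on each side, 85 regions were called in both. With lists of equal length, 19 regions were in sh-VNGD only. At LFNG, 1 region was in sh-VNGD only with a −log10 q of at least 5, and 1 with lists of equal length. Of the other pathway genes, fold enrichment put 1 past 1.5-fold lower and 1 higher. At a pileup of at least 30 there was 1 higher, and 0 had a peak in sh-VNGD only and 0 in sh-ctrl only. A window of 2000 bp gave 2 in sh-VNGD only. Counting only regions covering the start gave 1 higher and 0 in sh-ctrl only. The cause of these changes was not tested. Low pileups limit the precision, and a region missing from a list has no value.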
